A study of Homo sapiens with 2 samples.

Results

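The interferon regulatory factor (IRF) genes were examined for binding sites of LDB1, a nuclear adaptor that links DNA-bound blood factors and brings enhancers to promoters. The members were the 8 genes IRF1, IRF2, IRF3, IRF4, IRF5, IRF7, IRF8 and IRF9, out of 19974 genes with a coding sequence on the autosomes and chromosome X. They were chosen by gene family. A peak counted for a gene when its midpoint fell inside the gene or at most 10 kb outside, and a wider search reached to 100 kb. The study used untreated cells of NB4, an established line of human acute promyelocytic leukaemia with a PML::RARA fusion, and CUT&Tag, in which an antibody directs a transposase to cut and tag the nearby DNA. The groups were 1 library made with an LDB1 antibody and 1 made with IgG, which recognises no chromatin protein. There was no replicate, so no value below has a test or a replicate error.

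The LDB1 list held 53742 peaks, each given by position and width alone, and the 52765 on the autosomes and chromosome X were used. No height, fold or read depth was given, so width is the only size of a peak used here. The background in the IgG library was not analysed here, and binding by LDB1 and cutting of open chromatin cannot be told apart from the positions. All positions are hg38, counted from 1.

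IRF proteins share an amino-terminal DNA-binding domain that reads GAAA repeats in the promoters of interferons and of interferon-stimulated genes. IRF3, IRF5 and IRF7 are latent in the cytoplasm and are activated by kinases downstream of viral and bacterial sensors, and IRF9 is part of a complex that carries the signal of type I interferon. IRF4 and IRF8 act mainly in blood cells with partners such as PU.1, and IRF8 is required for monocyte and dendritic cell development and restrains granulocyte output. IRF1 activates, and IRF2 largely opposes, the same target genes.

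Of the 8 IRF genes, 6 had an LDB1 peak inside them or at most 10 kb away. Among all 19974 protein-coding genes the share was 70.1%, so having such a peak did not set the IRF genes apart. The 6 genes held 24 peaks, and no peak counted for 2 members. IRF1 and IRF5 had 6 peaks each, IRF2 and IRF8 had 4 each, IRF3 and IRF4 had 2 each, and IRF7 and IRF9 had none. The median was 3 peaks per IRF gene and 1 per gene over all protein-coding genes. The mean over all protein-coding genes was higher than their median, at 2.58. A count of 6 or more was reached by 12.7% of all protein-coding genes, and a count of 4 or more, which 4 of the 8 IRF genes had, by 23.1%. The 2 peaks of IRF3 and of IRF4 were matched by 46.9%. Long genes collect more peaks, so each count was also set beside genes of 0.5 to 2 times the same length. Among those, 9.30% reached the count of IRF1, 10.7% that of IRF5, 23.7% that of IRF8, 24.9% that of IRF2, 44.0% that of IRF3 and 45.4% that of IRF4. A peak within the same distance was present at 65.4% of genes as short as IRF7 and at 66.7% of genes as short as IRF9, which both lacked one.

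**Figure D1:**
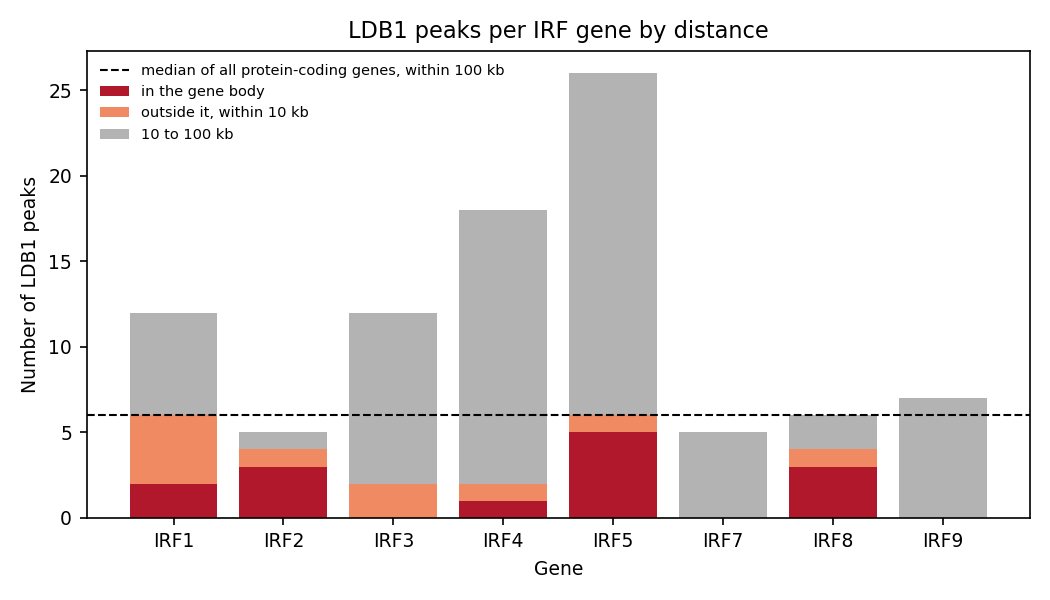
Number of LDB1 peaks (vertical axis) for each IRF gene, stacked as peaks in the gene body, outside it within 10 kb, and 10 to 100 kb away, with the median of all protein-coding genes within 100 kb as a dashed line. IRF5 stands highest with 26 peaks, 20 of them 10 to 100 kb away, and the bars of IRF7 and IRF9 hold only peaks of that distant kind.

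The position of the peaks relative to the gene differed from member to member. Of the 24 peaks, 14 had their midpoint inside a gene body and 10 outside it. A peak in the body was found in 5 of the 8 genes (54.5% of all protein-coding genes), namely IRF1, IRF2, IRF4, IRF5 and IRF8. A peak midpoint within 1 kb of a start site was found for IRF1 and IRF5, 2 of the 8, where 37.0% of all protein-coding genes had one. Start sites were known for IRF1, IRF4, IRF5, IRF8 and IRF9; for IRF2, IRF3 and IRF7 the strand was not used and either gene end was counted. The peaks nearest to the 10 kb limit were 8.97 kb from IRF8 on its inner side, and 11.5 kb from IRF1 and 13.2 kb from IRF9 on its outer side.

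IRF1, an activator induced by interferon gamma, had a wide LDB1 peak over its start. IRF1 occupies chr5:132481609-132490773 on the minus strand. The peak at its start, chr5:132490383-132491795, was 1413 bp wide, and 7.08% of all peaks were as wide. A second wide peak of 1327 bp lay 5.87 kb upstream of the start (chr5:132495979-132497305). The other peaks within 10 kb were narrower. Those in the gene body were 448 bp (5.09 kb downstream of the start) and 575 bp (4.16 kb downstream), and those beyond the far end of the gene were 699 bp and 542 bp, at 3.81 and 6.28 kb from it. IRF1 therefore carried peaks on both sides and inside, with the widest at and upstream of the start.

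The peak over the IRF1 start took in the whole 300 bp promoter window that RefSeq gives for the gene (250 bp before the start and 50 bp from it on, GRCh38.p14). The 250 bases before the start are printed because they lie wholly inside the peak. The capitals mark the only match in the window to any of 6 motifs searched on both strands, a gamma-activated site (TTCNNNGAA) that begins 124 bases before the start.
IRF1, chr5:132490774-132491023, minus strand: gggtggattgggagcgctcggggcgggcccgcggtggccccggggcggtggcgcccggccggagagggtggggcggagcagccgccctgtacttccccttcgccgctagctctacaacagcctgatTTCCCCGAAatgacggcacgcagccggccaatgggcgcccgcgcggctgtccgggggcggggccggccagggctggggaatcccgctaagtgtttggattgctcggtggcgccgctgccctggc
A gamma-activated site is a class of element through which interferon gamma acts. TTCNNNGAA occurred in 7.66% of the 34961 RefSeq promoter windows of the same length, and in 4.26% of the 7050 windows that a peak overlapped.

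IRF2, the counterpart of IRF1 that represses many of the same targets, had 4 narrow peaks spread over a long gene. Its body spans 86.8 kb (chr4:184387729-184474550), and the 3 peaks inside were 424, 541 and 500 bp wide. The last of these, chr4:184472753-184473252, was the closest to a gene end, with its midpoint 1548 bp inside it. The remaining peak, of 366 bp, lay 2.91 kb outside the opposite end. None of the 4 reached the median width of all peaks, 550 bp. Per length IRF2 was the sparsest of the 6 genes with peaks, with 0.374 peaks per 10 kb of gene and flanks, against 2.06 for IRF1.

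Among the IRF genes activated by pathogen sensors, IRF5 was dense in peaks while IRF3 and IRF7 had none in the gene. IRF5, which drives inflammatory cytokine genes in myeloid cells, spans 13.0 kb (chr7:128937032-128950038, plus strand) and held 5 of its 6 peaks inside the body. The first, of 1142 bp (chr7:128937560-128938701), covered 2 of the start sites used for the gene. The next, of 713 bp, lay between starts. A peak of 1064 bp (chr7:128940121-128941184) covered 1 further start and reached into the window of another. Peaks of 486 and 455 bp lay further inside, and 1 of 431 bp lay 8.11 kb before the gene. All 4 promoter windows that RefSeq lists for IRF5 were overlapped by a peak, 3 of them over their whole length, where 20.2% of all windows were overlapped. Because the 4 windows share peaks and lie close together, they are not independent.

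The 250 bases before the first listed IRF5 start are printed as the second promoter lying wholly in a peak. The capitals mark its matches to the E-box CAGNTG, the kind of site bound by TAL1 and E proteins, which are partners of LDB1. These matches begin 102 and 24 bases before the start.
IRF5, chr7:128937677-128937926, plus strand: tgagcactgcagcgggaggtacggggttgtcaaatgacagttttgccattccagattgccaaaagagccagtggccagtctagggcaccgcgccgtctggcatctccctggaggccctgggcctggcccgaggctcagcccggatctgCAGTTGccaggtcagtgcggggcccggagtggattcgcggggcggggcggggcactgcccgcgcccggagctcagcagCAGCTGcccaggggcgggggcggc
The E-box is a common motif: 49.9% of all promoter windows held it, 48.3% of those overlapped by a peak and 50.3% of the others.

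IRF3, the factor that turns on interferon beta after viral sensing, spans 6.29 kb (chr19:49659572-49665857) and held no peak. Its 2 peaks within 10 kb were 771 and 432 bp wide, 4.84 and 1.79 kb from the gene, and both had their midpoint inside the neighbouring gene SCAF1. IRF7, which amplifies the type I interferon response, spans 3.40 kb (chr11:612555-615950) and had no peak within 50 kb. It lay in a stretch of 120 kb without a peak (chr11:560685-680499) together with 6 other protein-coding genes. A stretch at least as long separated 11.4% of neighbouring peaks, and the median stretch was 9.56 kb. The absence at IRF7 was thus shared with its neighbours.

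The IRF genes of blood cell identity, IRF4 and IRF8, had peaks in the gene body that did not cover a start site. The same held for IRF2, for which either gene end was counted. IRF4, a regulator of plasma cells and activated lymphocytes, had the widest peak of all 24, 1652 bp (chr6:392060-393711), and 4.64% of all peaks were as wide. It began 308 bp after the start of the gene (chr6:391752-411443, plus strand). Its midpoint lay 1.13 kb inside the gene, so IRF4 was not counted among the genes with a peak at the start. A peak of 804 bp lay 7.07 kb upstream. The 250 bases before the start are printed because they lie just outside the peak. The capitals mark a reverse-strand match to GAGGAA, a core of sites for ETS factors, which begins 25 bases before the start and occurred in 27.9% of all windows.
IRF4, chr6:391502-391751, plus strand: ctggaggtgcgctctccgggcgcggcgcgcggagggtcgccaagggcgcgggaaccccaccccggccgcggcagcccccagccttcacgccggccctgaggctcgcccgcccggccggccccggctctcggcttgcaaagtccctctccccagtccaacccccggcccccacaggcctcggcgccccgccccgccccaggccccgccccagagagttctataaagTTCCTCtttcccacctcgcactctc

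IRF8 spans 23.4 kb (chr16:85899162-85922609, plus strand), and its peaks gathered in the later part of the gene. The 3 peaks in the body were 748 bp (chr16:85915035-85915782), 492 bp (chr16:85918338-85918829) and 830 bp (chr16:85919513-85920342), with midpoints 16.2, 19.4 and 20.8 kb downstream of the 5′ end. The remaining peak, of 468 bp, (chr16:85931345-85931812) lay 8.97 kb past the other end, 32.4 kb from the 5′ end. No peak overlapped either of the promoter windows that RefSeq lists for the gene. Their starts, 85902830 and 85903015, lie inside the gene. No window is listed at its 5′ end, so that end was not searched for motifs. The peak closest to a start had its near edge 12020 bp away. In the wider search, which was made for the distal enhancers for which IRF8 is known, only 2 further peaks appeared. They were 399 and 487 bp wide and lay 63.7 and 62.6 kb upstream. Another protein-coding gene, COX4I1, lay closer to both, at 28.4 and 29.5 kb. Past the peak at 8.97 kb, the next peak downstream lay 104 kb from the gene, just beyond the search. The long downstream side of IRF8 was therefore without a listed peak outside the first 10 kb.

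IRF9, the DNA-binding subunit of the complex formed after type I interferon, spans 5.30 kb (chr14:24161265-24166565, plus strand) and had no peak within 10 kb. The closest, of 455 bp, lay 13.2 kb away inside REC8. IRF9 lay in a stretch of 106 kb without a peak (chr14:24073121-24179529) that also held 8 other protein-coding genes. A stretch at least as long separated 12.8% of neighbouring peaks. Its promoter is printed as one without a peak, for comparison with that of IRF1. The capitals mark an E-box that begins 118 bases before the start and a gamma-activated site that begins 63 bases before it.
IRF9, chr14:24161015-24161264, plus strand: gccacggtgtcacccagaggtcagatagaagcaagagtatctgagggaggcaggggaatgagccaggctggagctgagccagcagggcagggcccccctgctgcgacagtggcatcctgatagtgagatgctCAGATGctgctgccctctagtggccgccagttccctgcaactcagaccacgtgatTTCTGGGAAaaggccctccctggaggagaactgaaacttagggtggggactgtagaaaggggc
The gamma-activated site letters were thus present both in a promoter inside a peak and in one without any.

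Across the 9 promoter windows listed for 5 members, TTCNNNGAA was found in 2, CAGNTG in 6 (of IRF5, IRF8 and IRF9) and GAGGAA in 1. The windows of IRF5 and IRF8 lie inside these genes and do not reach their 5′ ends. Those of IRF8 overlap each other, and the only CAGNTG match in the second is also counted in the first. No window held the interferon element (GAAA, any 2 bases, GAAA), the GATA motif AGATAA or the AP-1 motif TGANTCA. Over all windows these were found in 3.58, 10.3 and 7.68%. The GATA motif was in 4.88% of the windows with a peak and in 11.7% of those without. Base composition moved with the presence of a peak: the median GC content before the start was 66.8% in windows with a peak and 54.4% in the others, and its part in the motif shares was not tested. The bases before the start held 74.4% GC at IRF1, 69.6% at the first IRF5 start, 76.0% at IRF4 and 59.6% at IRF9.

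**Figure D2:**
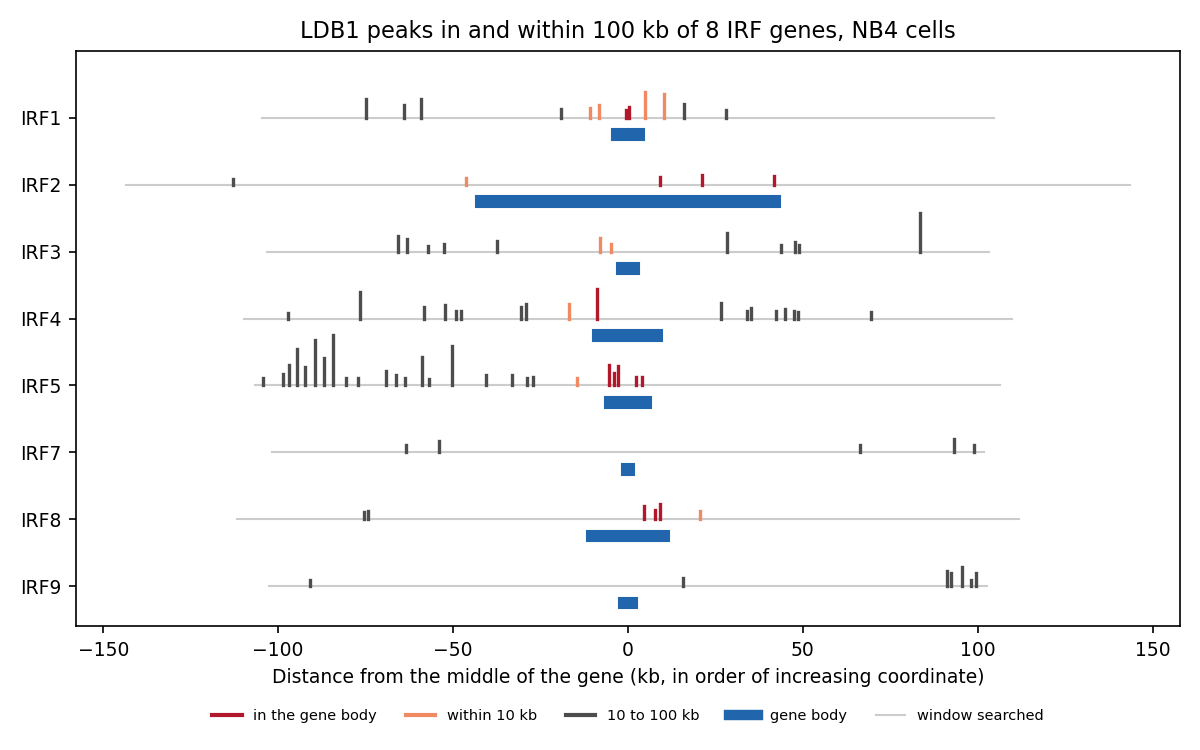
Map of the LDB1 peaks in and within 100 kb of each IRF gene, by distance from the middle of the gene in kb, with coordinates increasing to the right; the height of each line is in proportion to the width of the peak, and blue boxes are gene bodies. IRF5 has its 20 distant peaks on 1 side only, IRF4 has 8 on each side, and IRF7 sits in an empty stretch of 120 kb.

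Within 100 kb all 8 genes had at least 1 peak, as had 92.5% of all protein-coding genes. The search took in 91 peaks, none of them counted for 2 members. IRF5 had 26 and IRF4 had 18, counts reached by 9.45 and 18.0% of all genes. IRF1 and IRF3 had 12 each, IRF9 had 7, IRF8 had 6, and IRF2 and IRF7 had 5 each, where the median gene had 6. The mean over all protein-coding genes was 9.77. Of the 67 peaks between 10 and 100 kb away, 41 had their midpoint inside another protein-coding gene.

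The distant peaks of IRF5 mostly had their midpoint inside neighbouring genes, and which gene they act on was not tested. FLNC, the filamin C gene, held 8 of the 20, among them the widest at 2778 bp (chr7:128857832-128860609), and KCP, which encodes a secreted regulator of BMP signalling, held 7 of up to 2210 bp. None of the 20 lay on the higher-coordinate side, where the next peak was 177 kb from the gene. IRF3 showed a similar picture, with 5 distant peaks in PRR12, 4 in CPT1C and 1 of 2117 bp in TSKS. At IRF9, TGM1 held 4 of the 7 distant peaks.

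At IRF4 and IRF1 most distant peaks lay outside protein-coding genes. Of the 16 distant IRF4 peaks, 12 lay outside protein-coding genes, 4 on the upstream side and 8 downstream, and the other 4 lay in DUSP22, a phosphatase gene. The 8 downstream peaks lay from 16.8 to 59.5 kb past the gene and were 340 to 848 bp wide. Of the 12, upstream peaks of 391, 421 and 638 bp lay nearest to DUSP22, at 1.23, 2.59 and 19.7 kb. Downstream peaks of 397, 340 and 344 bp lay nearest to EXOC2, at 36.1, 35.0 and 14.2 kb. The nearest protein-coding gene to the rest of the 12 was IRF4. All 6 distant IRF1 peaks lay outside protein-coding genes. On the downstream side of IRF1, 4 of them, and 1 of the peaks within 10 kb, had their midpoint in CARINH, a long non-coding RNA gene next to IRF1 that was named after its values were seen. Their widths, from the most distant inwards, were 1059, 712, 1049, 461 and 542 bp. The nearest protein-coding gene to those of 1059, 712 and 1049 bp was SLC22A5, at 15.6, 26.6 and 31.3 kb.

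**Figure D3:**
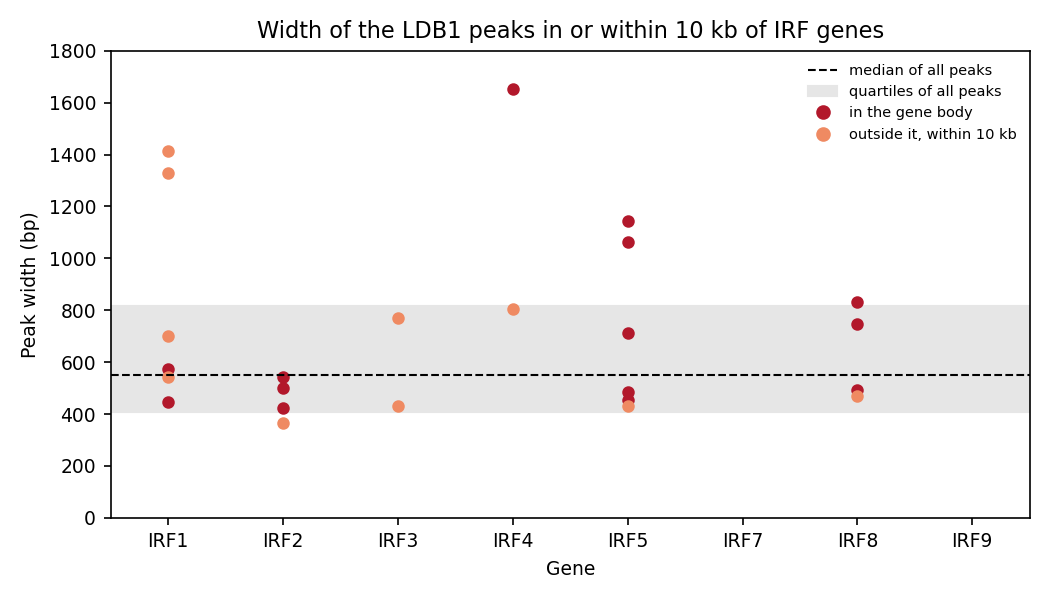
Width in bp of each LDB1 peak in or within 10 kb of the IRF genes (points), with the median of all peaks as a dashed line and their quartiles, 408 and 816 bp, as a grey band. The points above the band belong to IRF1, IRF4, IRF5 and IRF8, and all 4 points of IRF2 lie below the dashed line.

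In width the peaks at IRF genes were ordinary as a group. The 24 peaks had a median of 558.5 bp (range 366 to 1652 bp), beside a median of 550 bp and quartiles of 408 and 816 bp over all peaks. Exactly 12 of the 24 were at or above the median of all peaks. The 5 peaks wider than 1000 bp lay at IRF1 (1413 and 1327 bp), IRF4 (1652 bp) and IRF5 (1142 and 1064 bp), where 16.4% of all peaks were that wide. The peaks 10 to 100 kb away had a median of 564 bp.

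**Figure D4:**
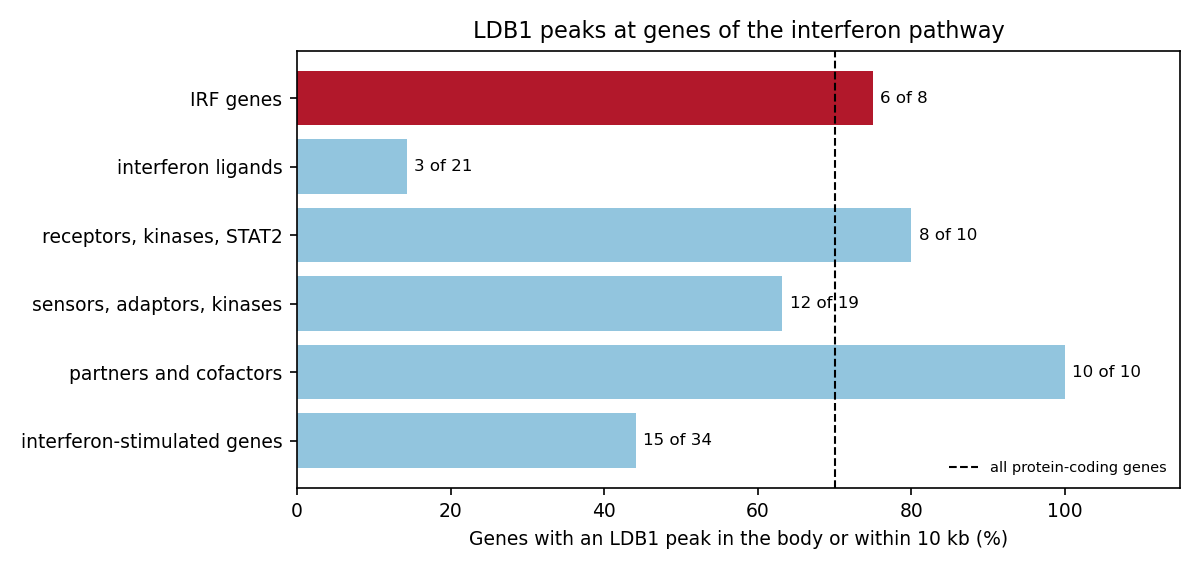
Share of genes with an LDB1 peak inside or at most 10 kb away (horizontal axis, %) for the IRF genes and 5 lists of interferon pathway genes, with counts beside the bars and the share of all protein-coding genes, 70.1%, as a dashed line. The partners and cofactors stand above the line with 10 of 10, and the ligands below it with 3 of 21. Of the 21 ligands, 17 lie in 1 stretch of chromosome 9 without a peak.

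Other genes of the interferon pathway were counted by the same measure, against the same 70.1%. Their counts were not set beside genes of like length, and long genes collect more peaks. The signal begins with the ligands, of which 3 of 21 had a peak: IFNL3 with 3 peaks and IFNL1 and IFNL2 with 1 each, all of them outside the genes. IFNL2 and IFNL3 are near-identical copies, so their peaks are uncertain. IFNA1, IFNA2, IFNA4 and IFNA5 had none. Of the 21 ligand genes, 17 lay in 1 stretch of 9.29 Mb of chromosome 9 without a peak (chr9:19896035-29189325), so their absence is a single observation and not 17. The stretch also held 21 other protein-coding genes, among them MLLT3, MTAP and CDKN2A, named after their values were seen, and only 4 of 52742 stretches between neighbouring peaks were as long. Of the 4 ligand genes elsewhere, 3 had a peak.

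Receptors, their kinases and STAT2 had peaks at 8 of 10 genes. JAK1 and JAK2, the kinases of the interferon gamma receptor and of other receptors, had 5 each, the widest of 891 and 1089 bp. They are long genes, of 235 and 146 kb. TYK2, a kinase of the type I interferon receptor, had 4 with the widest at 1091 bp, and IFNLR1 had 2. No peak lay at IFNGR2 or STAT2.

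Of the sensors, adaptors and kinases that activate IRF proteins, 12 of 19 had a peak. IKBKE and TRAF3, a kinase and an adaptor of the IRF3 and IRF7 branch, had the most with 9 each. Their lengths are 26.4 and 134 kb. MAVS, the mitochondrial adaptor of RNA sensors, had 5 with the widest at 1525 bp, and IRAK1 had 5 as well. TLR4, TLR7, TLR8 and MYD88 had none.

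All 10 binding partners and cofactors of IRF proteins had a peak. JUNB, an AP-1 subunit, had 7 peaks, all of them outside its short gene. IRF2BP1, a corepressor that binds IRF2, had 5 with the widest at 1247 bp. The acetyltransferase gene CREBBP, which spans 156 kb, had 5. SPIB, a relative of PU.1, had 4, all of them outside its gene.

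Interferon-stimulated genes had a peak at 15 of 34. The highest counts were at IFITM2 and IFITM3 (6 each) and IFITM1 (5), which encode membrane proteins that block viral entry. These neighbours share peaks, since the widest counted for IFITM1 and for IFITM3 is the same (998 bp, chr11:318403-319400). RSAD2, the gene of the antiviral enzyme viperin, had 4 with the widest at 1503 bp. None was found at OAS1, OAS2, OAS3 or OASL, of which the first 3 are neighbours. TAP1 and PSMB9, named after their values were seen, had none either, and the list placed 83 peaks on alternate copies of parts of chromosome 6, which makes the absence at these 2 genes uncertain.

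A peak at a start site, by the measure that 37.0% of all protein-coding genes met, was found at 0 of 21 ligands. Of these, 17 share the stretch of chromosome 9 without a peak, so they are a single observation. Such a peak was found at 3 of 10 genes of receptors, kinases and STAT2, and at 8 of 19 sensors, adaptors and kinases. It was found at 7 of 10 partners and cofactors and at 5 of 34 interferon-stimulated genes.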

How the data were processed

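The authors deposited peak positions and widths in bp for the LDB1 library, with starts and ends counted from 1. The submitters' processing notes name hg38, Bowtie2 2.4.1 and MACS2 2.0.10. The sources used here do not give the parameters, the threshold, the handling of duplicates or whether IgG served as control. Peak number and width depend on depth and threshold, and the depth is unknown. The 977 peaks on other contigs and chromosome Y were not assigned to genes.

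Gene bodies came from a RefSeq table of GRCh38.p14. Start sites came from RefSeq promoter windows (34961 windows, with 5 of the 8 members) and the 5′ gene end; for genes without an entry either end was used. A peak belonged to a window that held its midpoint. Counting was tested on simulated data and run in Python 3.11.15 with pandas 2.3.3. Motifs were searched on both strands of the 300 bp windows.

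The members and the pathway lists (94 genes; 1 more is not reported here) were chosen with earlier results of these data known. The genes named are all members and some of the genes that hold or lie nearest to peaks within 100 kb. Of each list they are up to 4 genes with the most peaks (ties in list order) and up to 4 without. Genes outside this rule are said to be named after their values were seen. With 1 library per antibody no test was possible, and shares of all protein-coding genes are given beside the counts. The alternatives were the widest 50% or 25% of peaks, other distances, overlap in place of midpoint, and joining of peaks 1 kb or less apart.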

Additional observations from a re-analysis of the deposited data

How the results depend on the processing

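The number of IRF genes with a peak within 10 kb was 6 and ran from 4 (widest 25% of peaks) to 7 (within 20 kb) over 7 alternatives. With the widest 50 and 25% of peaks the shares of all genes were 52.5 and 34.9%, and within 20 kb the share was 76.5%. The number with a peak at a start was 2. It moved to 1 when neighbouring peaks were joined, which shifts the midpoint of the joined IRF5 peak. The share of all genes is not given for that setting. Within 2500 bp the number was 5 (44.1% of all genes), with IRF2, IRF3 and IRF4 added. For IRF2 and IRF3 either gene end was counted, and the IRF3 peak had its midpoint in SCAF1. The number was 3, with IRF4 added, when any overlap with the 1 kb around a start counted (39.5% of all genes). The 24 peaks within 10 kb became 12 with the widest 50%, 6 with the widest 25% and 14 in gene bodies only. The 91 peaks within 100 kb became 47, 23 and, within 50 kb, 52. The median width became 817 and 1234.5 bp with the widest 50 and 25% of peaks, by construction. IRF2 lost all of its peaks with the widest 50%. IRF9 gained 1 peak at 20 kb, and IRF7 had none within 50 kb. No paired analysis was possible because each antibody had 1 library. With the depth unknown, the absence of a listed peak does not show the absence of LDB1.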
